A study of Mus musculus with 8 samples.

Results

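A set of 7 genes that move or hold calcium in the muscle fibre was followed in soleus. They were taken from the deposited table by exact match of the gene symbol, 7 of 24033 genes. They are the calcium pumps Atp2a1 and Atp2a2, the pump inhibitors Sln and Pln, and the calcium buffers Casq1, Casq2 and Pvalb. RNA sequencing was done on 8 soleus muscles from mice aged 2 months, 4 of each genotype. The MyoCre controls were Myogenin-Cre/+, and the K15-SKO mice were Myogenin-Cre/+ with K15F/F, the floxed alleles of Klf15, so both genotypes carried the Cre. The myogenin promoter drives that Cre in the skeletal muscle lineage, and the other cells of the muscle keep the gene. The comparison asks what the loss of the transcription factor KLF15 changes in muscle, and here whether it reaches calcium handling and its slow and fast isoforms.

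A muscle fibre contracts when calcium leaves the sarcoplasmic reticulum and relaxes when SERCA pumps return it. Fast fibres mainly use SERCA1, the product of Atp2a1, and slow fibres SERCA2a, a product of Atp2a2, which the heart also uses. Sarcolipin (Sln) and phospholamban (Pln) are small membrane proteins that bind these pumps and restrain them. Calsequestrins store calcium inside the reticulum, Casq1 in skeletal fibres and Casq2 in slow fibres and heart, while parvalbumin (Pvalb) soaks up calcium in the cytosol of fast fibres and speeds their relaxation. Mouse soleus is a mixed slow and fast muscle, so all of these genes can be read in the same sample.

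Values are FPKM, fragments scaled to transcript length and library size, so the levels of different genes can be set against each other. Library sums ran from 519884 to 652275 FPKM, and low values put the depth at an estimated 7780000 to 22200000 fragments. Klf15 itself fell from a control mean of 41.6 ± 12.7 to 16.2 ± 2.58 FPKM with the deletion (n = 4 per genotype, SD, limma adjusted p = 0.0315). Its log2 fold change lay between -1.55 and -1.15 in all 20 alternatives, and its call was lost in 13 of them (limma adjusted p from 0.000195 to 0.313). Slow sarcomere markers, 11 genes, summed to 11740 to 19743 FPKM among controls against 11450 to 21884 FPKM among K15-SKO libraries. A pair of libraries stood apart. MyoCre replicate 2 was the deepest and, by its RNA, the only one from a male: Xist was at 0.0103 FPKM against at least 20.998 FPKM in the other 7, and 4 Y-linked genes averaged 16.2 FPKM against 0. K15-SKO replicate 3 had a median-of-ratios size factor of 0.80 against 0.95 to 1.16 in the others. Its 8 markers of red and white blood cells summed to 2040 FPKM against at most 581.9 FPKM elsewhere. Most of that sum was haemoglobin, with Hbb-bs alone at 1265 FPKM. The leukocyte markers Ptprc, Cd68 and Adgre1 reached at most 3.40 FPKM in any library. Fewer cells of a type and less RNA per cell cannot be told apart in such bulk samples.

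None of the 7 genes passed the test between genotypes. All 7 were measured above the minimum mean of 1 FPKM, and 0 of 7 reached a limma adjusted p of 0.05 (range 0.957 to 0.995). An unadjusted p under 0.05 was found in 0 of 7, beside 4.33% of all tested genes, a share at which 7 genes can hold none. In the same fit 0.550% of 12535 genes passed, 23 lower (0.183%) and 46 higher (0.367%) in K15-SKO muscle, or 14 lower and 49 higher with median-of-ratios scaling. All 46 higher genes are listed at 0 in every MyoCre library, which can be a failed estimate, and without genes listed at 0 in a genotype the calls were 12 lower and 0 higher. The lower calls were 8 without MyoCre replicate 3 and 101 with library weights. In all 7 genes the libraries of the genotypes overlapped, as they did in all but 3.35% of tested genes. The median log2 fold change of the 7 was -0.05, beside -0.12 over all tested genes.

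**Figure D1:**
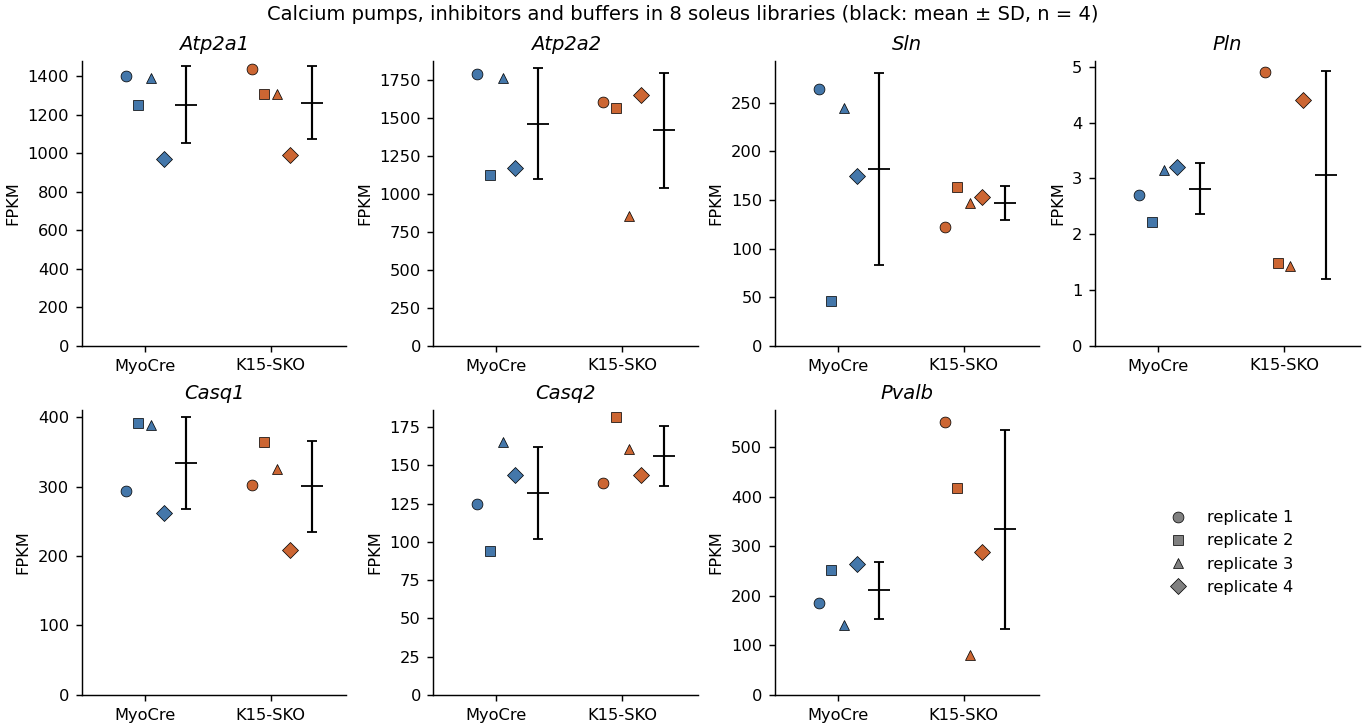
FPKM of each gene (vertical axis, from 0) in the 4 MyoCre (blue) and 4 K15-SKO (orange) libraries, with 1 point per library, the marker shape giving the replicate number and the black bar the mean ± SD. The genotypes overlap in every panel, MyoCre replicate 2 is low for Sln (45.8 FPKM), and K15-SKO replicate 3 is low for Atp2a2 (853.6 FPKM) and Pvalb (80.7 FPKM).

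The pumps were the most abundant of the set and lay close to each other. Atp2a1, the fast pump, had 1403, 1249, 1391 and 970.2 FPKM in MyoCre replicates 1 to 4 and 1438, 1306, 1310 and 992.8 FPKM in K15-SKO replicates 1 to 4. Replicate 4 was the lowest of each genotype, and the other 6 libraries lay together. The means were 1253 ± 201.3 and 1262 ± 189.5 FPKM (SD, n = 4 each), a log2 fold change of 0.01 with a 95% interval of -0.40 to 0.43 (limma adjusted p = 0.995; exact permutation p = 0.971, two-sided). Within genotypes its log2 values had the smallest SD of the set.

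Atp2a2, the slow and cardiac pump, had 1786, 1122, 1764 and 1170 FPKM in the MyoCre libraries and 1606, 1563, 853.6 and 1650 FPKM in the K15-SKO libraries. MyoCre replicates 1 and 3 were high, MyoCre replicates 2 and 4 were low, and K15-SKO replicate 3 lay below every other library. The means were 1461 ± 363.8 and 1418 ± 378.0 FPKM, a log2 fold change of -0.06 (95% interval -0.60 to 0.48, limma adjusted p = 0.981; exact permutation p = 0.914). Without K15-SKO replicate 3 the log2 fold change was 0.17 (limma adjusted p = 1.00). The intervals of both pumps ran from 0.755-fold to 1.35-fold for Atp2a1 and from 0.661-fold to 1.40-fold for Atp2a2.

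Set against each other, the slow pump was ahead in 3 of 4 libraries of each genotype. Atp2a1 made up 44.0%, 52.7%, 44.1% and 45.3% of the summed pump FPKM in the MyoCre libraries and 47.2%, 45.5%, 60.6% and 37.6% in the K15-SKO libraries. The exceptions were MyoCre replicate 2 and K15-SKO replicate 3, the libraries described above as standing apart. The log2 ratio of Atp2a1 to Atp2a2 was -0.20 ± 0.24 in MyoCre and -0.13 ± 0.56 in K15-SKO muscle (SD, n = 4 each). The difference of 0.07 was smaller than the spread (two-sided exact permutation p = 0.743, 0.971 after Benjamini-Hochberg adjustment over 3 ratios). It turned to -0.18 without K15-SKO replicate 3. Dividing each library by a single factor leaves such a ratio almost as it is, while quantile normalization, which gave 0.11 for Atp2a1 and -0.041 for Atp2a2, does not. The sum of both pumps also overlapped, at 2140 to 3189 FPKM among controls against 2164 to 3044 FPKM among K15-SKO libraries.

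**Figure D2:**
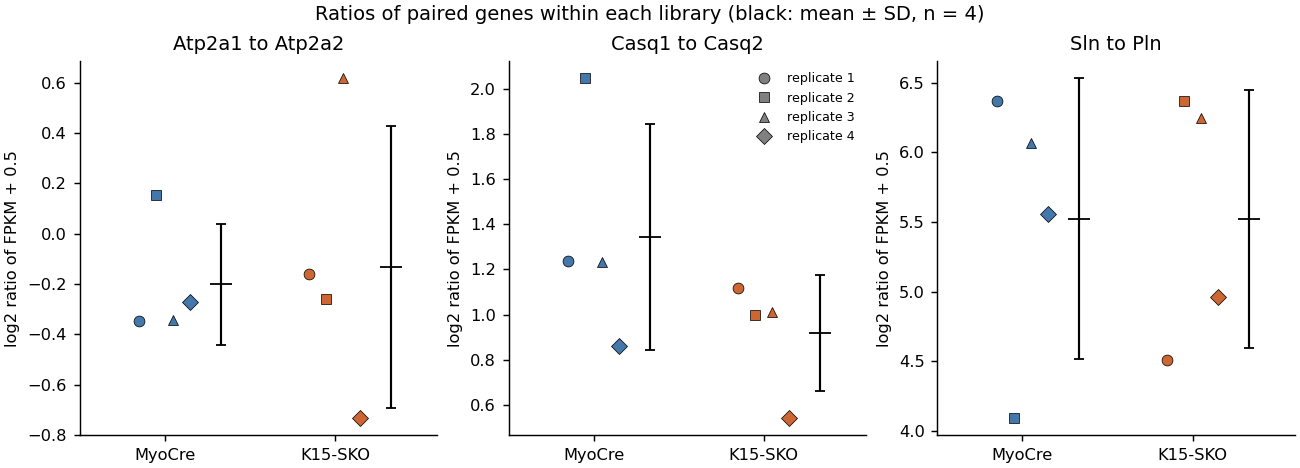
Log2 ratio of FPKM + 0.5 (vertical axis) for 3 gene pairs in each library, MyoCre in blue and K15-SKO in orange, marker shapes for replicate numbers, black bars for mean ± SD. MyoCre replicate 2 is the highest MyoCre library for both Atp2a1 to Atp2a2 and Casq1 to Casq2, and the lowest of all 8 for Sln to Pln.

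The inhibitors are among the shortest proteins of muscle, and their coding sequences are shown because they differ in length and because Pln, as described below, shares its place in the genome with another gene. Both are from GENCODE M21 (GRCm38, the build called mm10), written 5′ to 3′ with the start and stop codons in capitals. Sln is encoded on chromosome 9 from 53853473 to 53853568 (plus strand, within 1 exon) by 31 codons before the stop, and Pln on chromosome 10 from 53343864 to 53344022 (plus strand, within 1 exon) by 52.
Sln: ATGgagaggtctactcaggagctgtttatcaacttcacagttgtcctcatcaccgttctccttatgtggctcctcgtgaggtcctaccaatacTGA
Pln: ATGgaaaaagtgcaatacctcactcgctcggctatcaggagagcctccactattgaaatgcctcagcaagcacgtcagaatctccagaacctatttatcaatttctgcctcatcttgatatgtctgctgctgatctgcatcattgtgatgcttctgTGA

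Sarcolipin mRNA was far above phospholamban mRNA in every library. Sln had 264.4, 45.8, 244.3 and 174.6 FPKM in the MyoCre libraries and 122.6, 163.7, 147.0 and 152.7 FPKM in K15-SKO replicates 1 to 4. The K15-SKO values lay in a narrow band, while MyoCre ran from the lowest to the highest value of all 8 libraries. The lowest was MyoCre replicate 2, the male, and the other 3 MyoCre libraries lay above all 4 K15-SKO libraries. The means were 182.3 ± 98.8 and 146.5 ± 17.4 FPKM, a log2 fold change of -0.05 with a wide 95% interval of -1.29 to 1.19 (limma adjusted p = 0.990; exact permutation p = 0.457). Without MyoCre replicate 2 the log2 fold change was -0.62 (SE 0.21) and still missed the threshold over all genes (limma adjusted p = 0.745). With a single male, in 1 genotype, sex cannot be told apart from that one animal.

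Pln was the least abundant of the set, at 2.70, 2.21, 3.14 and 3.21 FPKM in the MyoCre libraries and 4.91, 1.49, 1.44 and 4.41 FPKM in K15-SKO replicates 1 to 4. The K15-SKO libraries split into a high pair, replicates 1 and 4, and a low pair, replicates 2 and 3, with all MyoCre libraries between them. The means were 2.82 ± 0.46 and 3.06 ± 1.86 FPKM, a log2 fold change of -0.05 (95% interval -0.78 to 0.68, limma adjusted p = 0.989; exact permutation p = 0.800). The difference in means and the log2 fold change had opposite signs. These values rested on an estimated 33 to 115 fragments per library, against at least 1046 for any other gene of the set. Pln also shares exonic sequence with Cep85l, which lies on the opposite strand and measured 16.5 to 42.7 FPKM, and since no strand setting is given in the sources used here, reads of these genes may not have been told apart.

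Per unit of pump mRNA, Sln stood at 8.29%, 1.93%, 7.74% and 8.16% of the summed Atp2a1 and Atp2a2 FPKM in the MyoCre libraries. In the K15-SKO libraries it stood at 4.03%, 5.71%, 6.79% and 5.78%. Apart from MyoCre replicate 2, the MyoCre libraries were the higher ones by this measure too. Pln stood at 0.0518% to 0.167% of pump mRNA over all 8 libraries. Sln was 20.7 to 97.9 times Pln in MyoCre and 24.97 to 110.1 times Pln in K15-SKO muscle. The log2 ratio was 5.52 ± 1.01 and 5.52 ± 0.93 (n = 4 each, two-sided exact permutation p = 0.971, 0.971 adjusted over 3 ratios).

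Of the calsequestrins, Casq1 was the more abundant in all 8 libraries. Casq1, the main calsequestrin of skeletal muscle, had 294.0, 391.6, 389.1 and 261.9 FPKM in the MyoCre libraries and 301.9, 363.9, 325.1 and 209.4 FPKM in the K15-SKO libraries. Replicate 4 was again the lowest of each genotype. The means were 334.2 ± 66.2 and 300.1 ± 65.6 FPKM, a log2 fold change of -0.16 (95% interval -0.62 to 0.30, limma adjusted p = 0.957; exact permutation p = 0.543). Relative to the median of all genes this change was -0.04.

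Casq2, the calsequestrin of slow fibres and heart, had 124.5, 94.3, 165.4 and 144.0 FPKM in the MyoCre libraries and 138.7, 181.7, 160.9 and 143.7 FPKM in K15-SKO replicates 1 to 4. The genotypes overlapped, with MyoCre replicate 2 low and K15-SKO replicate 2 high. The means were 132.0 ± 30.2 and 156.3 ± 19.4 FPKM, a log2 fold change of 0.26 (95% interval -0.16 to 0.69, limma adjusted p = 0.957; exact permutation p = 0.286). By unadjusted p (0.206) it ranked 2222 of 12535 genes, the foremost of the set. The value was 0.40 with median-of-ratios scaling (limma adjusted p = 1.00) and 0.11 without MyoCre replicate 2 (limma adjusted p = 0.978).

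The balance of the calsequestrins overlapped between genotypes. Casq1 was 2.36, 4.15, 2.35 and 1.82 times Casq2 in the MyoCre libraries and 2.18, 2.00, 2.02 and 1.46 times in the K15-SKO libraries. The log2 ratio was 1.34 ± 0.50 in MyoCre and 0.92 ± 0.26 in K15-SKO muscle, a difference of -0.43 that did not pass (two-sided exact permutation p = 0.229, 0.686 adjusted over 3 ratios; the smallest p that 70 assignments allow is 0.0286). Single libraries moved its size. It was -0.19 (exact permutation p = 0.429) without MyoCre replicate 2 and -0.30 (exact permutation p = 0.486) without K15-SKO replicate 4. Without MyoCre replicate 4 it was -0.59 (exact permutation p = 0.0286, unadjusted). That is also the smallest p possible with a library left out, reached whenever the genotypes do not overlap in this direction or the other.

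Pvalb, the cytosolic buffer of the fastest fibres, had the largest SD of log2 values within genotypes of the set (0.91). As a share of the mean, its SD was 27.5% in MyoCre, where Sln had 54.2%. In K15-SKO muscle that share was 59.9%, beside 60.7% for Pln. Pvalb had 185.0, 252.5, 141.8 and 265.0 FPKM in the MyoCre libraries and 551.4, 418.7, 80.7 and 287.8 FPKM in the K15-SKO libraries. Of the K15-SKO libraries 3 lay above every MyoCre library, and the fourth, K15-SKO replicate 3, lay below every one. The means were 211.1 ± 58.0 and 334.6 ± 200.6 FPKM, a log2 fold change of 0.40 (95% interval -1.004 to 1.81, limma adjusted p = 0.957; exact permutation p = 0.314). Leaving out K15-SKO replicate 3 gave 0.98 on the log2 scale (SE 0.27, limma adjusted p = 0.495), and with library weights, which give less weight to libraries that deviate, 1.25 (SE 0.33, limma adjusted p = 0.155). It did not pass over all genes in either fit. K15-SKO replicate 3 is the library with the high haemoglobin. Its endothelial and fat marker sums, 238.5 and 498.1 FPKM, were also the highest of all libraries. Its slow sarcomere sum of 11450 FPKM was the lowest, next to 11740 FPKM in MyoCre replicate 4. The part of these in its low Pvalb was not tested.

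**Figure D3:**
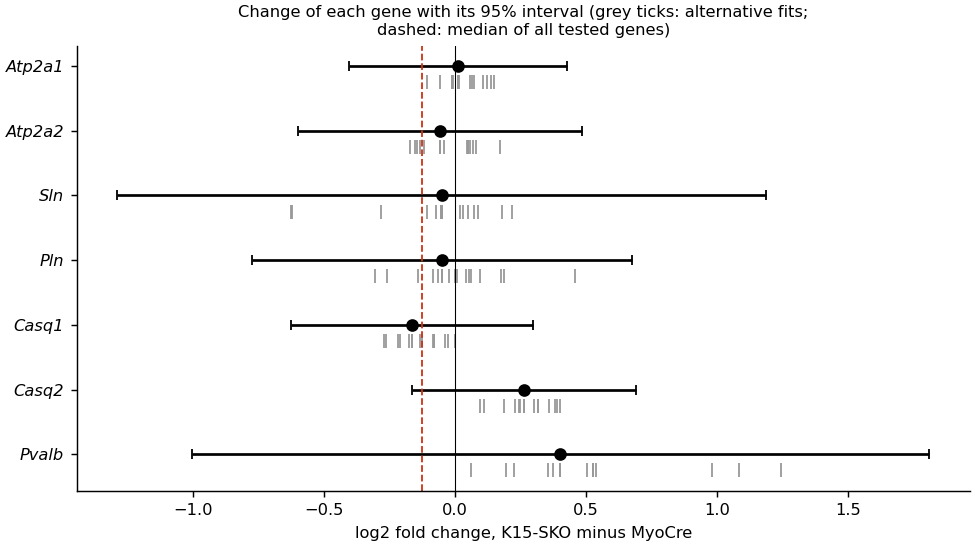
Log2 fold change of each gene, K15-SKO minus MyoCre (horizontal axis), with the 95% interval of the limma fit on all 8 libraries (black) and the values of the alternative fits as grey ticks beneath. Every interval spans 0, Sln and Pvalb have the widest ones (-1.29 to 1.19 and -1.004 to 1.81), and the dashed line marks the median of all tested genes at -0.12.

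The order of the levels was alike at its ends and varied in the middle. In both genotypes Atp2a2 led Atp2a1, with overlapping ranges, and both lay above all other genes of the set in every library, the next mean being 3.75 times lower in MyoCre and 3.77 times lower in K15-SKO muscle. In MyoCre the order continued with Casq1, Pvalb, Sln and Casq2, and the ranges of all these neighbours overlapped. In K15-SKO muscle it continued with Pvalb, Casq1, Casq2 and Sln. There Pvalb overlapped Casq1 as Casq2 did Sln. Casq1 lay above Casq2 with ranges that did not overlap in both genotypes, though only in K15-SKO muscle were these genes neighbours. Pln came last in each genotype, its mean 46.9 times below that of Casq2 in MyoCre and 47.9 times below that of Sln in K15-SKO muscle.

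The genes of the set also differed in how far single libraries departed from the mean of their genotype. The SD of log2 values within genotypes was 0.91 for Pvalb, 0.84 for Sln and 0.59 for Pln, against a median of 0.29 over 4441 genes whose mean reached 10 FPKM. It was 0.41 for Atp2a2, 0.32 for Casq1, 0.27 for Casq2 and 0.24 for Atp2a1. Of those 4441 genes, 97.9% had a lower SD than Pvalb, 97.7% a lower one than Sln and 31.6% a lower one than Atp2a1. Pln, with a mean of 2.94 FPKM over all libraries, lies under their level, so its SD is not set against genes of like level. Among the genes of the set themselves the highest correlations of log2 values over the 8 libraries rested on few of them. Atp2a1 with Casq1 had r = 0.68, and r = -0.62 without both replicates numbered 4, the lowest libraries of each genotype in both genes. Sln with Casq2 had r = 0.67, and r = -0.17 without MyoCre replicate 2, the lowest library in both genes. The most negative was Pln with Casq1, with r = -0.56, and r = -0.31 without both replicates numbered 4. Within each library all genes share the same scaling and depth, so these are descriptions.

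Each gene was set beside Myh7, the slow myosin heavy chain, and Myh4, the IIb myosin of the fastest fibres. Myh4 had 12.2, 66.7, 3.48 and 22.5 FPKM in the MyoCre libraries and 285.0, 84.8, 11.02 and 132.8 FPKM in the K15-SKO libraries. Over the 8 libraries Pearson's r of log2 values between Pvalb and Myh4 was 0.83 (exact permutation p = 0.0094, 0.0658 adjusted over 14 relations) and Spearman's rho 0.93 (exact permutation p = 0.00223, 0.0312 adjusted). The relation kept r = 0.76 without the 2 libraries farthest from the median of Myh4, MyoCre replicate 3 and K15-SKO replicate 1, and it was 0.84 with MyoCre replicate 2 left out and 0.91 with K15-SKO replicate 3 left out. The rank correlation passed after adjustment and Pearson's r did not. The other relations with Myh4 lay between r = -0.51 for Sln and r = 0.35 for Pln, and none of these 6 passed (exact permutation, adjusted p of at least 0.561). Leaving out MyoCre replicate 2 gave r = -0.76 for Sln, and leaving out K15-SKO replicate 3 gave r = -0.18 for Atp2a2, which had r = 0.13 over all 8.

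Beside Myh7, which ran from 669.2 to 2280 FPKM, the strongest relation was that of the fast pump. Atp2a1 had r = 0.87 (exact permutation p = 0.00742, 0.0658 adjusted over 14 relations) and rho = 0.71 (exact permutation p = 0.0576, 0.403 adjusted). It was r = 0.40 without MyoCre replicate 4 and K15-SKO replicate 4, the libraries lowest in Myh7, so the relation rests on them. For the slow pump Atp2a2 the values were r = 0.51 over 8 libraries (exact permutation p = 0.200) and r = 0.93 without these 2. For Casq2 r was -0.02 (exact permutation p = 0.965).

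**Figure D4:**
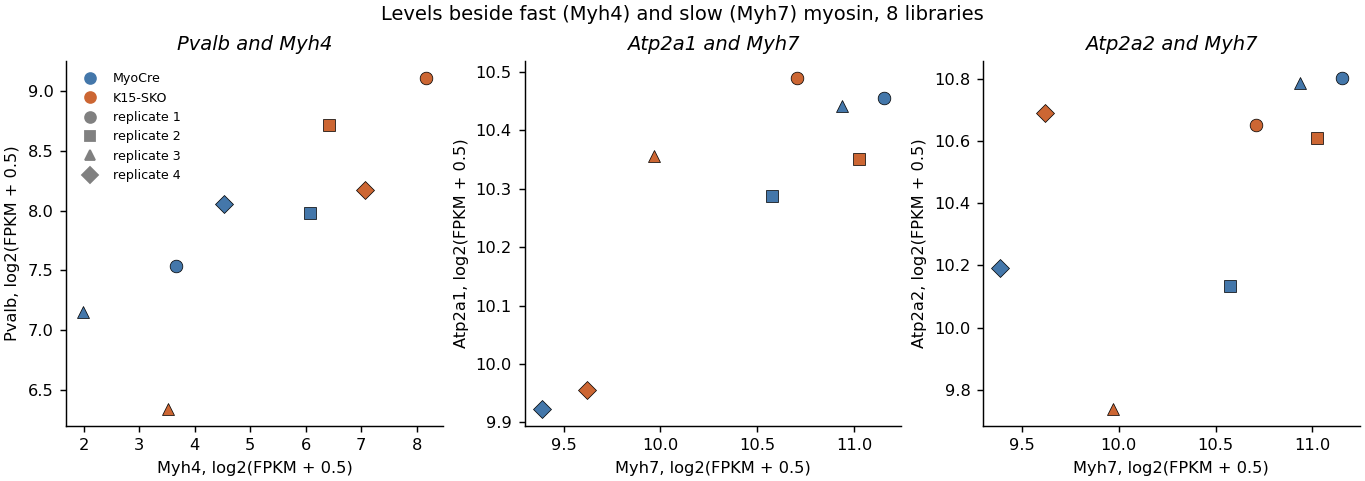
Levels on the log2(FPKM + 0.5) scale of Pvalb beside Myh4 (left), Atp2a1 beside Myh7 (middle) and Atp2a2 beside Myh7 (right), 1 point per library, MyoCre in blue and K15-SKO in orange. Pvalb is higher where Myh4 is higher (r = 0.83 over 8 libraries), and both replicates numbered 4 stand at the low end of Myh7 in the other panels.

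Fibre makeup and other cell types were read beside these values. Fast sarcomere markers, 11 genes without Myh2, summed to 8019 to 18940 FPKM among controls against 6430 to 17436 FPKM among K15-SKO libraries. Myh2 was left out of the sum because it is listed at 0 in all 4 MyoCre libraries, against 738.1 to 2095 FPKM in K15-SKO muscle. Such a 0 can be a failed estimate, so no difference is read from it. The slow and fast sums overlapped between genotypes, and of the 11 slow markers 0 passed the test. None of the 11 fast markers in the sum passed either. By the means, most of the fast sum was Tnnc2, Tnnt3, Mylpf, Tnni2 and Myl1. The highest log2 fold changes in it were those of Myh4 (2.23), Mybpc2 (0.87) and Actn3 (0.67). The others lay between -0.19 for Myoz1 and 0.08 for Mylk2. Heart muscle, which also uses Atp2a2, Pln, Casq2 and, in the atria, Sln, had 6 markers in the table. They summed to between 4.36 and 11.95 FPKM, with Mybpc3 and Ryr2 under 1 FPKM in every library. Smooth muscle, where Pln and Atp2a2 are also used, had 8 markers that summed to 153.1 to 237.0 FPKM over all 8 libraries. Of these Cnn1 and Lmod1 were under 1 FPKM in every library. By the means, most of the sum was Synpo2, at 130.1 ± 32.1 and 104.9 ± 17.5 FPKM (MyoCre first). Myh11 stood at 4.88 ± 2.22 and 4.45 ± 2.36 FPKM. The nerve, where some neurons carry Pvalb, had 9 markers summing to between 47.4 and 63.7 FPKM. Of these Sox10, S100b, Nefl and Nefm were under 1 FPKM in every library. Pmp22 alone measured 39.0 ± 0.89 and 37.6 ± 6.39 FPKM (MyoCre first). Endothelial markers summed to 140.5 to 238.5 FPKM, fibroblast markers to 449.4 to 1050 FPKM and fat markers to 254.1 to 498.1 FPKM over the 8 libraries. By the means, most of the fat sum was Fabp4, at 264.0 ± 39.3 and 311.5 ± 101.3 FPKM (MyoCre first). Adipoq stood at 5.45 ± 1.90 and 3.63 ± 1.88 FPKM. Fabp4 had a log2 fold change of 0.20 and the other tested fat markers -0.76 to -0.23, and 0 of 6 passed. The part of these cells in the levels was not tested.

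For each gene of the set the 3 most alike genes over the 8 libraries were sought among 3893 genes (3894 for Pln) whose mean reached 10 FPKM, by Pearson's r of log2 values. These r values are high by selection and are a description. Atp2a1 was most like Mylk2, the skeletal myosin light chain kinase (r = 0.96), Gpc1 (r = 0.95) and the nuclear receptor gene Nr1h2 (r = 0.95). Without both replicates numbered 4 these were 0.72, 0.19 and 0.33. Atp2a2 was most like Hif1an (r = 0.96), the proteasome gene Psmd11 (r = 0.95) and Rassf3 (r = 0.94). Casq1 had the closest partners of the set, Aamp (r = 0.99), Aifm2 (r = 0.98) and Uqcrc1, a core subunit of respiratory complex III (r = 0.98). Casq2 had looser ones, Tmem165 (r = 0.86), Grb10 (r = 0.83, and 0.55 without MyoCre replicate 2) and Itm2a (r = 0.80).

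Sln was most like Xist (r = 0.88), the RNA of the inactive X chromosome, with Tceal7 and Nt5c2 next (r = 0.87 each). Xist was near 0 in the male library, the one lowest in Sln, and without that library its r with Sln was 0.15, against 0.83 for Tceal7 and 0.91 for Nt5c2. Pln was most like Prkaa2, a catalytic subunit of AMP-activated kinase (r = 0.90), Ddit4l (r = 0.90) and Lgr4 (r = 0.88). Pvalb was most like Rabgap1 (r = 0.93), Ostn, the secreted muscle factor osteocrin (r = 0.93), and Mybpc2, the fast myosin-binding protein C (r = 0.89). Mybpc2 measured 20.2 ± 8.46 and 42.4 ± 27.4 FPKM and Ostn 16.3 ± 3.02 and 24.2 ± 10.3 FPKM (MyoCre first), and like Pvalb both spread more widely in K15-SKO muscle.

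Other genes of the calcium cycle were read from 4 lists, none with a gene past the threshold, beside 0.550% of all tested genes, a share at which lists of this size can hold none. Of 15 other genes of the reticulum store and its pump regulators, 0 of 15 passed in either direction (median log2 fold change -0.14). The inhibitor myoregulin, Mrln, measured 31.8 ± 6.68 and 26.0 ± 8.92 FPKM (log2 fold change -0.31, limma adjusted p = 0.957), an mRNA level between those of Sln and Pln. 1810037I17Rik, for which RefSeq gives the synonym Aln, measured 17.4 ± 1.66 and 16.9 ± 3.76 FPKM. The smallest p-values were those of Tmem38b, a cation channel of the reticulum (24.4 ± 5.46 and 18.2 ± 5.34 FPKM, log2 fold change -0.44, limma adjusted p = 0.957), and Calr, the calcium-binding chaperone calreticulin (54.0 ± 7.71 and 42.4 ± 10.7 FPKM, log2 fold change -0.36, limma adjusted p = 0.957). The third SERCA gene, Atp2a3, stood at 2.94 ± 0.89 and 3.76 ± 1.63 FPKM, far under both main pump genes.

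At the triad, where calcium is released, 0 of 10 tested genes passed (median -0.07). The nearest was Cacng1, the gamma subunit of the muscle calcium channel, with 34.2 ± 7.79 and 55.0 ± 11.4 FPKM (log2 fold change 0.68, SE 0.21, limma adjusted p = 0.537), and next came Cacna2d1, its alpha-2/delta subunit, with a log2 fold change of -0.26 (limma adjusted p = 0.957). Ryr1, the release channel, measured 138.2 ± 42.7 and 134.7 ± 23.0 FPKM. Among 20 tested genes of calcium transport over the surface membrane and into mitochondria 0 passed (median -0.07), with the smallest p-values for the sodium-calcium exchanger Slc8a3 (4.62 ± 1.51 and 6.90 ± 2.03 FPKM, log2 fold change 0.55, limma adjusted p = 0.957) and the mitochondrial protein Letm1 (-0.30, limma adjusted p = 0.957). Among 22 tested genes of cytosolic sensors, calcineurin and CaM kinase 0 passed (median -0.13). Rcan1, a calcineurin inhibitor that is itself a calcineurin target, measured 156.0 ± 38.5 and 118.9 ± 17.9 FPKM (log2 fold change -0.37, limma adjusted p = 0.957), and the calmodulin gene Calm2 59.8 ± 4.49 and 48.7 ± 8.83 FPKM (-0.31, limma adjusted p = 0.957). In these 4 lists 2 genes, Cacng1 and Slc8a3, had an unadjusted p under 0.05, beside 4.33% of all tested genes.

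**Figure D5:**
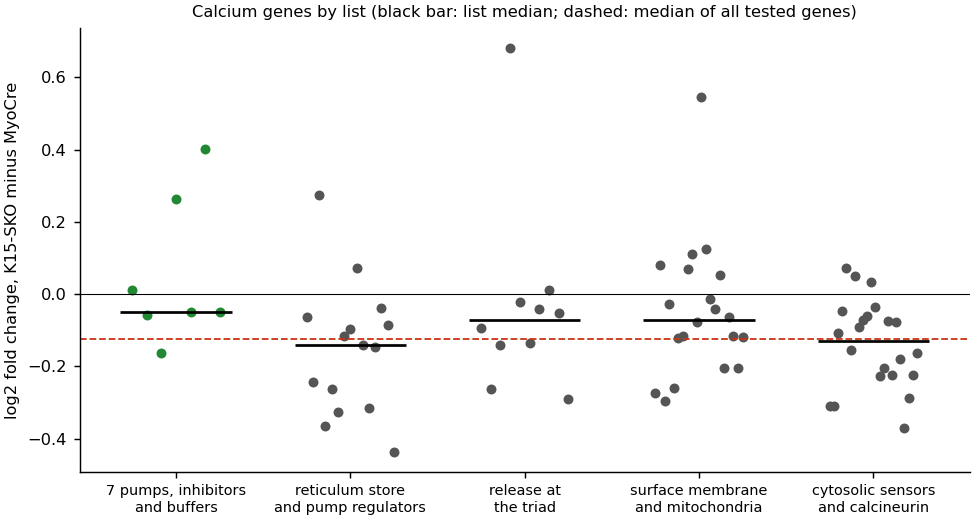
Log2 fold change, K15-SKO minus MyoCre (vertical axis), of each tested gene in the set of 7 (green) and in 4 lists of other calcium genes (grey), with the list median as a black bar. The list medians lie between -0.14 and -0.05, close to the median of all tested genes at -0.12 (dashed), and Cacng1 at 0.68 and Slc8a3 at 0.55 are the highest points.

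KLF factors bind GC-rich DNA with CACCC boxes, and the upstream sequences of the calsequestrins and of Pvalb are shown to print what these letters look like beside each buffer gene. Of the 7 genes 5 matched an entry, all but Atp2a2 and Sln. The sequences are from RefSeq (GRCm38.p6), the 250 bases before the start of transcription in the direction of the gene, with CACCC, or GGGTG where it lies on the other strand, in capitals.
Casq1, chr1:172219896-172220145, minus strand: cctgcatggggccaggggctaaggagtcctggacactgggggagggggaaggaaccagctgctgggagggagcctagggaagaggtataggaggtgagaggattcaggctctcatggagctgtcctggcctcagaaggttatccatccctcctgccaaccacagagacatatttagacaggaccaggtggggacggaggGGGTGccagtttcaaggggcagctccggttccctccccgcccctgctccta
Casq2, chr3:102086165-102086414, plus strand: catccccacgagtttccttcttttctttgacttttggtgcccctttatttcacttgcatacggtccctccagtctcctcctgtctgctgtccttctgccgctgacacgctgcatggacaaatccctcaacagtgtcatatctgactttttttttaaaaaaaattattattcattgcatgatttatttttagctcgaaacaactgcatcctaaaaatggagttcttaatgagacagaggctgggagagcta
Pvalb, chr15:78206401-78206650, minus strand: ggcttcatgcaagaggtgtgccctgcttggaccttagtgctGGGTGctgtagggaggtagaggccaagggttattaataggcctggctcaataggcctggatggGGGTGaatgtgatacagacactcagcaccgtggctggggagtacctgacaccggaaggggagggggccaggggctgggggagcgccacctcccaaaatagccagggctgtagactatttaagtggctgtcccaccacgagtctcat

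Casq1 held 1 match in this window, Casq2 0 and this start of Pvalb 2, with GC contents of 61.6%, 41.6% and 58.4%. Atp2a1 held 1 match, Pln 0 and the other start of Pvalb 0. Of all 32851 such windows 52.0% held at least 1 match, so a match is common. The E-box CANNTG, the general motif of the myogenic factors, had 2 matches each in Casq1 and Casq2 and 0 at the first start of Pvalb, and 66.2% of all windows held it. A match is a run of letters and says nothing of binding.

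In genomic terms (GENCODE M21, GRCm38) the 7 genes lie on 7 chromosomes and are all protein coding. Atp2a1 (ENSMUSG00000030730.12) spans 126445858 to 126463108 on the minus strand of chromosome 7, and its exons touch those of Rabep2 on the opposite strand, which measured only 1.32 and 1.26 FPKM on average. Atp2a2 (ENSMUSG00000029467.15) spans 122453513 to 122502225 on the minus strand of chromosome 5. It has 5 annotated transcripts, and a value per gene does not separate the muscle pump SERCA2a from the general isoform SERCA2b. Casq1 (ENSMUSG00000007122.11) spans 172209894 to 172219868 on chromosome 1, Casq2 (ENSMUSG00000027861.13) 102086415 to 102146514 on chromosome 3, and Pvalb (ENSMUSG00000005716.16) 78191114 to 78206400 on chromosome 15. Sln spans 53850164 to 53854560 on chromosome 9 and Pln 53337667 to 53345987 on chromosome 10, and for these the version in the deposited table is 1 older than in GENCODE M21, so the authors' gene model may differ.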

How the data were processed

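RNA of 8 soleus muscles, 4 MyoCre and 4 K15-SKO, was sequenced, per the labels' protocols. The authors deposited 1 table of 24033 genes, taken here to hold FPKM: per the submitters' processing notes they used STAR, Cufflinks and Cuffdiff with mm10, and the unit was inferred because the header gives only sample names. The sources used here do not give the annotation release, the strand setting or the scaling. An exact 0 in this table can be a failed estimate. All columns were mapped to samples by their labels. The labels do not say how samples and animals correspond beyond 4 per genotype, so p-values measure the spread between these samples.

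Values were fitted as log2(FPKM + 0.5) in limma 3.58.1 (R 4.3.3) with trend and robust variance, genotype alone, over the 12535 genes whose mean reached 1 FPKM. P-values are two-sided and Benjamini-Hochberg adjusted over all tested genes, with a threshold of 0.05. A fold change on this scale understates that of low genes such as Pln. Single genes and ratios were also compared by exact permutation over 70 assignments, or fewer where libraries were left out. Relations with myosins were compared over all 40320 pairings. Intervals are 95% and unadjusted. The fit was tested on simulated data. Depth was estimated from FPKM multiplied by length for 4820 genes with 1 transcript of over 1000 bases, taking the lowest major peak as 1 fragment. No counts were recovered.

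The 7 genes and all lists were chosen with earlier results of these data known. The text names the 7 genes, the 3 genes most like each (mean of at least 10 FPKM, no library at 0), the 2 genes of each calcium list with the smallest p, and reference genes. Mrln, 1810037I17Rik, Atp2a3 and Ryr1 were added for their function after their values were seen. The alternatives were pseudocounts, filters, scalings, library weights, the replicate block and left-out libraries. The correlations without single libraries were added after seeing the data.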

Additional observations from a re-analysis of the deposited data

Results flagged for a closer look

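Each group of 4 libraries was searched for a value whose gap to its nearest neighbour takes up most of the range of the group. The search covered 20 groups (7 genes and 3 ratios per genotype) and found 2, beside 1 that chance gives at 1 in 20. Atp2a2 in K15-SKO replicate 3 stood at 853.6 FPKM with the nearest library at 1563 FPKM, a gap of 0.890 of the range. The log2 ratio of Atp2a1 to Atp2a2 in MyoCre replicate 2 stood at 0.15 with the nearest library at -0.27, a gap of 0.845 of the range.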

How the results depend on the processing

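None of the 7 genes passed the threshold in any of 139 fitted values over 20 alternatives, where the lowest limma adjusted p was 0.155 (Pvalb with library weights). Pln had no value with a minimum mean of 5 FPKM. The genes past the threshold were 69, and 39 with that minimum, 157 with library weights (101 lower) and 12 without the genes listed at 0 in a genotype. The signs of the small log2 fold changes turned easily. Median-of-ratios, upper-quartile and quantile scaling gave Sln 0.086, 0.075 and 0.050 and Pln 0.062, 0.053 and 0.043, and the first 2 gave Atp2a2 0.081 and 0.069. Library weights gave Atp2a2 0.051 and Pln 0.46. Without MyoCre 2 and K15-SKO 3 together the values were -0.0073 for Atp2a1, 0.056 for Atp2a2, 0.10 for Pln, and -0.063 for the log2 ratio of Atp2a1 to Atp2a2. A pseudocount of 0.1 gave 0.034 for the log2 ratio of Sln to Pln. Casq2 and Pvalb were higher in K15-SKO muscle in all 20 alternatives each, without passing. The 4 lists of calcium genes had 0 genes past the threshold in each of their 4 alternatives.

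Leaving out 1 library at a time gave log2 fold changes from -0.11 to 0.12 for Atp2a1, -0.17 to 0.17 for Atp2a2, -0.62 to 0.22 for Sln, -0.31 to 0.19 for Pln, -0.27 to 0.00086 for Casq1, 0.11 to 0.38 for Casq2 and 0.06 to 0.98 for Pvalb, and from 59 to 80 genes past the threshold. The differences in log2 ratio ran from -0.18 to 0.27 for Atp2a1 to Atp2a2, -0.59 to -0.19 for Casq1 to Casq2 and -0.48 to 0.34 for Sln to Pln. With the replicate block 78 genes passed, and the log2 fold changes of the 7 genes kept their values, with adjusted p from 0.868 to 0.985. The log2 ratio of Casq1 to Casq2 was lower in K15-SKO muscle in 4 of 4 same-numbered pairs (exact permutation p = 0.125, the smallest that 4 pairs allow). The replicate numbers were not taken as pairs, because the labels do not give them as such. Deviations of same-numbered libraries correlated unevenly, at 0.15, 0.34, 0.01 and 0.34. Yet 6 of 8 libraries correlated best with their own number, so the unpaired tests may leave out something that same-numbered libraries share. Depth limits Pln most. The cause of these shifts was not tested.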
